A study of Homo sapiens with 27 samples.

Results

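The ETS factors of the ERK pathway described here are 7 genes, ETV1, ETV4, ETV5, ETS1, ETS2, ELK3 and ERF, chosen by gene symbol. Each has 1 row in a table of 40487 gene rows. All 7 passed the filter on low counts and were among the 16611 rows tested. The rows come from poly(A) RNA-seq of MCF10A, an immortalized human mammary epithelial cell line that does not form tumours and depends on EGF for growth. The cells were grown in serum-containing medium with 20 ng/ml EGF, hydrocortisone, cholera toxin and insulin, plated on collagen-1, and then held in factor-free medium for 18 h. One group of 3 libraries, T0, was collected at that point (0 h). The other 8 groups of 3 libraries were collected 24 h later, after fresh factor-free medium with PBS, with EGF, with oncostatin M (OSM), with TGFB, with EGF+OSM, with EGF+TGFB, with OSM+TGFB or with EGF+OSM+TGFB, each ligand at 10 ng/ml. The study asked how ligands act alone and in combination. All groups share the same line, plating and factor-free interval, and nothing in the labels says whether the 3 libraries of a group came from separate cultures, so p-values measure only the spread between these libraries, which may be technical.

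ETS factors bind DNA through a shared domain that reads a GGAA core, and several of them are wired to the EGF receptor, RAS, RAF, MEK and ERK cascade. ETV1, ETV4 and ETV5 form the PEA3 group, activators whose transcription rises when ERK phosphorylates and removes the repressor CIC, and which drive branching growth in epithelia. ETS1 and ETS2 are activators that ERK phosphorylates directly, ELK3 (Net) is a ternary complex factor that represses serum response genes until ERK converts it to an activator, and ERF is a repressor that ERK expels from the nucleus. OSM signals through gp130 and JAK kinases to STAT factors and also to ERK, and TGFB through SMAD factors.

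The 27 libraries held 30.1 to 52.9 M estimated counts (median 39.5 M), and levels are given as CPM, the count relative to the TMM-scaled library total. The basal epithelial markers KRT5, KRT14, TP63, CDH1, CDH3 and ITGB4 were present in every library and summed to 6926 to 17893 CPM. Of the leukocyte markers, PTPRC, CD3E and LYZ reached at most 7 counts in any library, while CD14 ranged from 1.70 to 79.2 CPM. Of the 5 endothelial markers, CDH5 reached at most 6 counts, TEK 0.685 CPM, PECAM1 2.06 CPM and VWF 3.52 CPM, and KDR ranged from 0.309 to 31.2 CPM. Among the 5 fibroblast markers, PDGFRA, COL1A2 and LUM stayed at or under 0.453 CPM, PDGFRB reached 1.04 CPM and DCN ranged from 7.42 to 103 CPM. Of the 5 luminal markers, PGR reached at most 1 count, KRT19 0.753 CPM and ESR1 3.41 CPM, while FOXA1 ranged from 2.10 to 17.0 CPM and GATA3 from 10.4 to 28.8 CPM. The marker sums moved with the ligands. The endothelial sum went from 31.2 to 35.3 CPM in PBS to 1.76 to 2.12 CPM with EGF and 3.16 to 3.92 CPM with OSM, mostly through KDR. The fibroblast sum went from 86.0 to 95.8 CPM in PBS to 10.2 to 13.6 CPM with EGF, mostly through DCN. The leukocyte sum went from 28.1 to 34.1 CPM in PBS to 5.91 to 7.41 CPM with EGF and 55.2 to 79.3 CPM with OSM, mostly through CD14. The luminal sum went from 31.0 to 35.5 CPM in PBS to 20.8 to 23.3 CPM with EGF and 20.5 to 25.4 CPM with OSM. The basal sum was 8820 to 9858 CPM in PBS, 6926 to 7329 CPM with EGF and 14157 to 14444 CPM with OSM. The part of these genes in the results was not tested. One library, OSM replicate 3, stood apart from the other OSM libraries in several of the genes described here, and the OSM results it moved most are also given without it.

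ETV1, ETV4 and ETV5 were lowest in PBS and rose at least 12.8-fold with EGF. The ETV1 gene lies on chromosome 7 (13891229 to 13991425, minus strand, GRCh38), ETV4 on chromosome 17 (43527844 to 43579620, minus strand) and ETV5 on chromosome 3 (186046314 to 186110318, minus strand). In ETV4, 68 exon bases overlap DHX8 on the opposite strand, and in ETV5, 164 exon bases overlap DGKG on the same strand, so reads from those stretches cannot be assigned with certainty. ETV1 was at 0.699, 0.495 and 0.538 CPM in the 3 PBS libraries and at 6.89, 8.41 and 9.63 CPM with EGF. The groups were far apart, a 14.4-fold difference (log2 fold change 3.84 ± 0.23 (SE), n = 3 each, adjusted p = 3.59e-13, Benjamini-Hochberg adjusted over all 16611 rows from edgeR's quasi-likelihood test, the test used throughout). ETV4 stood at 1.82, 2.15 and 2.13 CPM in PBS and at 25.5, 25.0 and 27.6 CPM with EGF, which is 12.8-fold higher (3.67 ± 0.24, adjusted p = 3.94e-12). ETV5 stood at 2.77, 2.91 and 2.40 CPM in PBS and at 43.2, 45.2 and 49.0 CPM with EGF, 17.0-fold higher (4.08 ± 0.19, adjusted p = 3.74e-14). In bulk RNA, fewer cells with a transcript and less of it per cell cannot be told apart.

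OSM raised the same 3 genes to lower levels than EGF, and its libraries were uneven. With OSM, ETV1 was at 1.71, 1.62 and 2.73 CPM, all above PBS (3.48-fold, log2 1.80 ± 0.23, adjusted p = 3.16e-07). ETV4 was at 3.78, 2.64 and 6.48 CPM, also all above PBS (2.10-fold, log2 1.07 ± 0.24, adjusted p = 0.000576, edgeR). ETV5 was at 11.2, 9.37 and 18.5 CPM, again above every PBS library (4.80-fold, log2 2.26 ± 0.20, adjusted p = 1.24e-09). The highest value of each came from OSM replicate 3. Without that library the log2 fold changes against PBS were 1.52 for ETV1, 0.64 for ETV4 (adjusted p = 0.0107, edgeR) and 1.92 for ETV5, and all 3 remained past the threshold of 0.05. The direct difference between EGF and OSM was 2.04 ± 0.20 on the log2 scale for ETV1, 2.61 ± 0.22 for ETV4 and 1.82 ± 0.16 for ETV5. Without OSM replicate 3 it was 2.39 ± 0.21 for ETV1, 3.10 ± 0.20 for ETV4 and 2.23 ± 0.13 for ETV5.

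With TGFB, ETV1 and ETV5 passed the test against PBS and ETV4 did not. The responses of the 3 PEA3 genes were not tested against each other. ETV1 was at 1.51, 1.08 and 1.15 CPM with TGFB, above PBS (log2 1.11 ± 0.24, adjusted p = 0.000673, edgeR). ETV5 was at 10.98, 8.51 and 7.85 CPM, 3.38-fold above PBS (1.76 ± 0.20, adjusted p = 3.58e-07). ETV4 was at 2.30, 2.37 and 2.27 CPM, just above the PBS libraries, and did not pass the test (0.18 ± 0.25, 95% interval -0.34 to 0.71, adjusted p = 0.633, edgeR).

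The combinations placed the 3 genes in different orders. ETV1 was at 7.32, 8.59 and 8.98 CPM with EGF+OSM, the same range as with EGF. It stood at 2.64, 2.63 and 3.94 CPM with EGF+TGFB and at 2.64, 2.27 and 2.48 CPM with EGF+OSM+TGFB. With OSM+TGFB it was at 0.813, 0.604 and 0.899 CPM, where it overlapped PBS (0.42 ± 0.25, adjusted p = 0.147, edgeR). From lowest to highest the ETV1 order was PBS, OSM+TGFB, TGFB, T0, OSM, EGF+OSM+TGFB, EGF+TGFB, EGF+OSM and EGF. Only the steps from OSM+TGFB to TGFB and from EGF+TGFB to EGF+OSM separated neighbours whose 3 libraries did not overlap. ETV4 followed nearly the same order, with EGF at the top, then EGF+OSM (19.6, 16.0 and 19.6 CPM), EGF+TGFB (13.0, 14.6 and 17.4 CPM) and EGF+OSM+TGFB (8.47, 8.54 and 10.8 CPM). Its 5 lower groups were OSM, T0 (2.51, 3.39 and 3.57 CPM), OSM+TGFB (2.58, 1.90 and 3.42 CPM), TGFB and PBS, each overlapping the next except TGFB and PBS, whose difference did not pass the test. ETV5 did not share this order. Its 4 groups with EGF, alone or combined, lay between 43.2 and 49.0 CPM in all 12 libraries, each overlapping its neighbour. This evenness depended on the TMM scaling. On plain library totals the means ran from 38.7 CPM with EGF+OSM+TGFB to 49.6 CPM with EGF. There EGF+OSM+TGFB (37.6 to 40.0 CPM) no longer overlapped EGF+TGFB (40.3 to 45.9 CPM). Below the 4 groups with EGF came OSM+TGFB (14.8, 13.3 and 16.7 CPM), OSM, TGFB, T0 (5.96, 5.86 and 7.65 CPM) and PBS. OSM overlapped both OSM+TGFB and TGFB, while T0 and PBS stood clear of their neighbours.

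Of the 7 genes, ETV1, ETS2, ELK3 and ERF had promoter windows in the RefSeq table used (GRCh38.p14), each window holding the 250 bases before an annotated start. Those of ETV4, ETV5 and ETS1 were not used here. The 13 windows of the matched genes (6 of ETV1, 2 of ETS2, 2 of ELK3 and 3 of ERF) were searched on both strands for the CIC sites TGAATGAA, TGAATGGA, TCAATGAA and TCAATGGA, the ETS core GGAA, the AP-1 site TGANTCA, the STAT site TTCNNNGAA, the SMAD box CAGAC and the CArG box bound by SRF. One window each of ETV1 and ETS2 is shown because EGF moved these genes in opposite directions, and for ETV1 it is the window with a CIC match. Both hold no annotated exon base on the strand of their gene, and exons on the other strand were not counted. Neither is the window of the canonical start, which lies 1759 bases away for ETV1 and 746 bases away for ETS2. The capitals mark ETS cores (GGAA, or TTCC on the other strand) and, in ETV1, a CIC site.
ETV1, chr7:13991426-13991675, minus strand: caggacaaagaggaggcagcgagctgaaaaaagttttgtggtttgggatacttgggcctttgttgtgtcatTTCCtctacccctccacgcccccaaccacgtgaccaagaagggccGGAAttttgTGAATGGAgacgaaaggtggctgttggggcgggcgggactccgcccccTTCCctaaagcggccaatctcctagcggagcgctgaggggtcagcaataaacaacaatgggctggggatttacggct
ETS2, chr21:38804933-38805182, plus strand: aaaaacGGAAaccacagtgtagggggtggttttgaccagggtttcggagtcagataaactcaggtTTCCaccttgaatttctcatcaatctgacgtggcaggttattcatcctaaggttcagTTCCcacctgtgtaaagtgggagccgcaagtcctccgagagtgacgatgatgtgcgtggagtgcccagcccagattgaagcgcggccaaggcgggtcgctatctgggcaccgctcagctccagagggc
The ETV1 window holds TGAATGGA beginning 125 bases before the start and 3 ETS cores beginning 179, 134 and 77 bases before it. The ETS2 window holds 3 ETS cores, 244, 185 and 128 bases before its start, and no CIC letters. A CIC site occurred in 3.18% of the 35114 windows of that length in the table, and an ETS core in 92.7%. Of the 13 windows this was the only one with a CIC match, 1 of the 6 of ETV1, and the window of the canonical ETV1 start had none. Some of the ETV1 windows overlap one another, so the windows are not separate draws to set against that share. The window of the canonical ETS2 start held 6 ETS cores. None of the 13 held the AP-1 letters (6.57% of all windows), the STAT letters (6.57%), the SMAD letters (38% of all windows) or a CArG box (1.16%). A match is a run of letters and not a binding site, and its absence from a window says nothing of the factor.

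ETS1 rose with each ligand and stood higher with each combination than with any of its ligands alone. Its gene lies on chromosome 11 (128458761 to 128587558, minus strand). ETS1 was at 27.2, 24.3 and 23.3 CPM in PBS, at 118, 113 and 110 CPM with EGF, and at 110, 94.5 and 137 CPM with OSM. EGF and OSM libraries overlapped, and both ligands gave the same log2 fold change of 2.19 against PBS, with SE of 0.11 for each (adjusted p = 2.43e-14 and 3.03e-14, edgeR). The direct difference, EGF minus OSM, was 0.003 on the log2 scale, with a 95% interval of -0.20 to 0.21. Without OSM replicate 3, the highest OSM library, this difference was 0.22 ± 0.09 and passed the threshold (adjusted p = 0.0337, edgeR). TGFB gave 62.0, 67.0 and 63.7 CPM, 2.58-fold above PBS (1.36 ± 0.10, adjusted p = 4.23e-10). EGF+OSM gave 238, 196 and 210 CPM, EGF+TGFB 218, 201 and 187 CPM and OSM+TGFB 162, 171 and 198 CPM, 3 groups that overlapped one another in the order of means. EGF+OSM+TGFB stood above all of them at 262, 245 and 263 CPM, although its step over EGF+OSM lost its call in 12 of 27 fits that left out 1 library and the 2 groups overlapped on plain library totals (means of 225 and 219 CPM). It was 10.3-fold above PBS (3.36 ± 0.11, adjusted p = 6.96e-18).

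ETS2 was the only one of the 7 that moved in opposite directions with EGF and OSM. Its gene lies on chromosome 21 (38805183 to 38824955, plus strand), with 112 exon bases shared with a long noncoding RNA gene on the opposite strand. ETS2 was at 155, 161 and 155 CPM in PBS. With EGF it was at 70.2, 73.7 and 68.3 CPM, below every PBS library and 2.22-fold lower (log2 -1.15 ± 0.09, adjusted p = 2.70e-11, edgeR). With OSM it was at 690, 735 and 592 CPM, 4.29-fold higher than PBS (2.10 ± 0.09, adjusted p = 1.03e-15), and 2.18 ± 0.09 without OSM replicate 3, here the lowest OSM library. The direct difference between EGF and OSM was -3.25 ± 0.09, the largest of the 7 genes in size (adjusted p = 1.96e-18). TGFB gave 228, 222 and 235 CPM, also above PBS (0.54 ± 0.08, adjusted p = 1.82e-05). With both EGF and OSM, ETS2 was at 213, 228 and 227 CPM, between the single ligands and overlapping TGFB alone. EGF+OSM+TGFB gave 234, 231 and 196 CPM and overlapped EGF+OSM. EGF+TGFB gave 157, 153 and 123 CPM and overlapped PBS (-0.12 ± 0.08, adjusted p = 0.217, edgeR). The highest group was OSM+TGFB at 767, 779 and 678 CPM, overlapping OSM alone.

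ELK3 and ERF, the members that repress, moved over narrower ranges. ELK3 lies on chromosome 12 (96194375 to 96269824, plus strand), with 209 exon bases shared with a long noncoding RNA gene on the opposite strand. It was at 82.7, 79.9 and 75.0 CPM in PBS, and every ligand group lay above these values. EGF gave 131, 132 and 131 CPM (log2 0.73 ± 0.06, adjusted p = 9.45e-11), OSM 116, 115 and 117 CPM (0.55 ± 0.06, adjusted p = 2.23e-08) and TGFB 146, 141 and 137 CPM (0.84 ± 0.06, adjusted p = 6.83e-11). Groups that held TGFB ranked highest, with TGFB overlapping EGF+OSM (141, 130 and 125 CPM). OSM+TGFB was at 183, 176 and 185 CPM and overlapped EGF+TGFB at 193, 187 and 170 CPM. EGF+OSM+TGFB was highest at 222, 228 and 200 CPM, 2.73-fold above PBS (1.45 ± 0.06, adjusted p = 2.03e-16).

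ERF lies on chromosome 19 (42247569 to 42255128, minus strand), where 181 exon bases are shared with another protein-coding gene model on the same strand. It was at 35.8, 34.1 and 38.1 CPM in PBS and overlapped T0 (38.0, 33.8 and 35.4 CPM). EGF gave 49.9, 48.3 and 48.6 CPM (log2 0.44 ± 0.06, adjusted p = 1.27e-06), OSM 52.7, 48.6 and 47.3 CPM (0.46 ± 0.06, adjusted p = 1.14e-06) and TGFB 45.7, 43.95 and 45.3 CPM (0.32 ± 0.06, adjusted p = 0.00034), each above PBS. EGF+OSM was highest at 57.7, 49.3 and 50.2 CPM and overlapped OSM+TGFB at 52.8, 51.5 and 46.9 CPM. EGF+TGFB, at 38.4, 37.6 and 41.2 CPM, overlapped PBS and did not pass the test (0.12 ± 0.06, adjusted p = 0.105, edgeR). EGF+OSM+TGFB lay between, at 41.6, 45.7 and 42.3 CPM. This order depended on the TMM scaling. On plain library totals the ERF means with EGF+TGFB (37.0 CPM) and EGF+OSM+TGFB (37.9 CPM) lay below T0 (39.1 CPM) and PBS (39.5 CPM). OSM+TGFB (44.3 CPM) lay below TGFB (47.2 CPM) there. On TMM-scaled CPM, ERF spanned 1.47-fold from its lowest to its highest group mean. The span was 2.73-fold for ELK3, 10.3-fold for ETS1, 10.5-fold for ETS2, 12.8-fold for ETV4, 14.4-fold for ETV1 and 17.7-fold for ETV5.

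**Figure D1:**
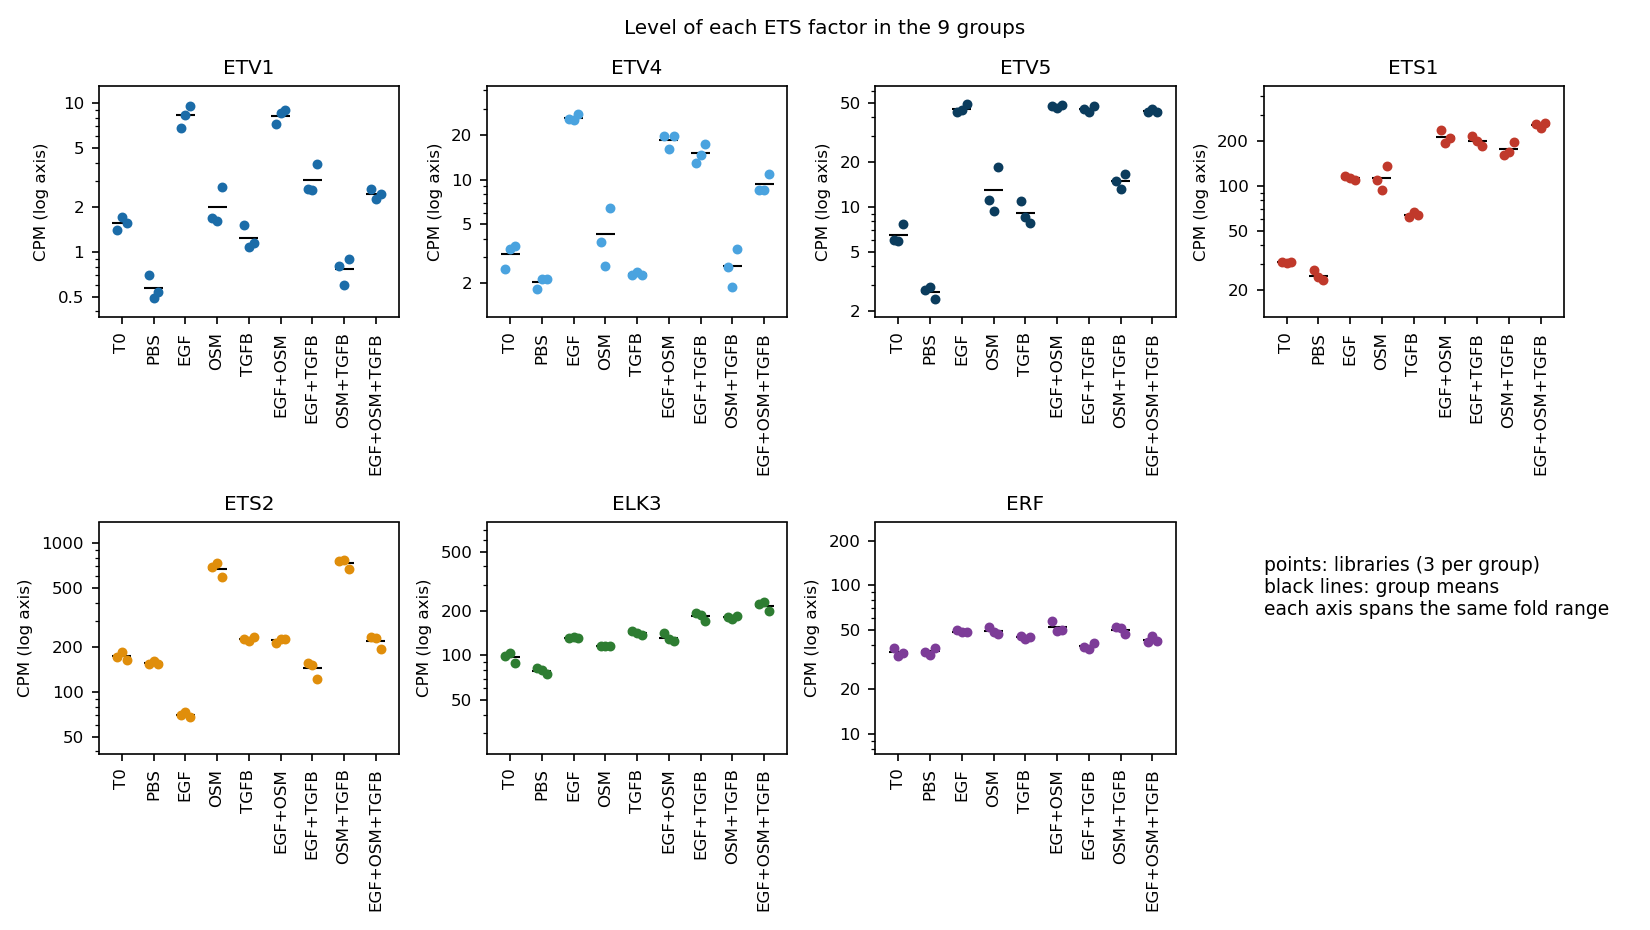
Level of each ETS factor in CPM (vertical log axis, the same fold range in every panel) in the 9 groups (horizontal axis), with points for the 3 libraries of a group and a black line for their mean. On this TMM-scaled axis ETV5 forms a step between 43.2 and 49.0 CPM in the 4 groups with EGF, which is less even on plain library totals. ETV1 and ETV4 step down where TGFB joins EGF, and ETS2 is lowest with EGF and highest in the 2 groups with OSM but no EGF.

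Per kilobase of the canonical transcript, the only scale on which levels were compared between genes, the PEA3 genes were the least abundant in PBS. ETV1 was at 0.0894, ETV5 at 0.659 and ETV4 at 0.871 CPM per kb, against 4.85 for ETS1, 13.5 for ERF, 18.9 for ELK3 and 42.8 for ETS2. With EGF, ETV4 and ETV5, both at 11.2 CPM per kb, stood nearer to ERF (18.3), ETS2 (19.3) and ETS1 (22.1), and ELK3 was highest at 31.3. With OSM, ETS2 stood alone at 183 CPM per kb, followed by ELK3 at 27.6. ETV1 stayed lowest in all 9 groups, and at 21 to 421 counts per library it had the thinnest counts. The biological coefficient of variation between replicates was 16.0% for ETV1, 18.0% for ETV4 and 13.7% for ETV5, and 5.19% to 8.46% for the other members, against 10.1% as the common value over all rows.

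Against PBS, EGF changed all 7 members, 6 higher and 1 lower. Over all rows tested, 70.8% were called in this comparison, 33.8% higher and 37.0% lower. OSM raised 7 of 7 (61.0% of all rows called, 32.4% higher and 28.5% lower), and TGFB raised 6 of 7 (33.5% called, 18.9% higher and 14.7% lower). The median log2 fold change of the members was 2.19 with EGF, 1.80 with OSM and 0.84 with TGFB, beside -0.07, 0.00 and -0.01 over all rows. EGF+OSM raised 7 (75.0% of all rows called), EGF+TGFB 5 (71.3%), OSM+TGFB 5 (63.5%) and EGF+OSM+TGFB 7 (72.1%). Most rows of the table were called with EGF, OSM and the combinations, so a count of called members near 7 is read against those shares. All 44 calls among the 49 comparisons of a member with PBS stayed past the threshold when each library was left out in turn. They also stayed past it under the 5 other settings of the fit. Plain library totals were not among these settings. There the ERF mean with EGF+OSM+TGFB, called higher, was 37.9 CPM, below the 39.5 CPM of PBS, with overlapping libraries.

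**Figure D2:**
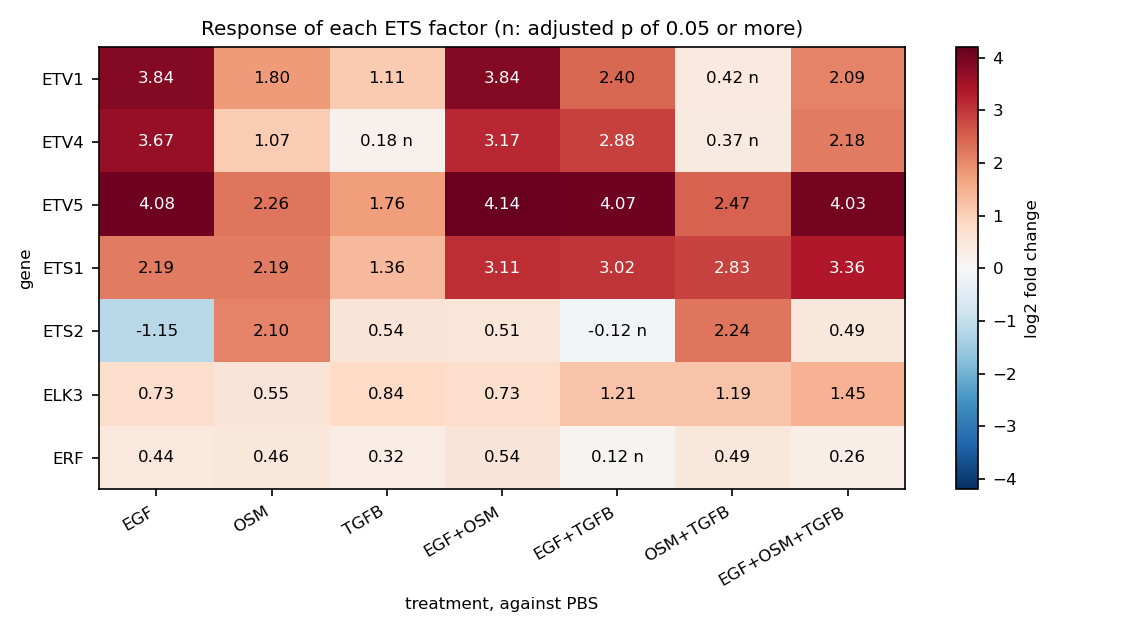
Log2 fold change of each ETS factor (rows) under each of the 7 ligand treatments (columns) against PBS, as colour and number, with n marking values that did not pass the adjusted p of 0.05. ETV1, ETV4 and ETV5 have the highest values wherever EGF is present without TGFB, and ETS2 under EGF is the only called value below 0.

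Between T0 and PBS, over 24 h without added ligand, 4 members fell (32.9% of all rows called). ETV1 was at 1.41, 1.73 and 1.56 CPM at T0, above all PBS libraries, and fell by 1.44 ± 0.23 on the log2 scale (adjusted p = 3.4e-05, edgeR). ETV5 fell by 1.26 ± 0.20 (adjusted p = 4.79e-05) and ELK3, at 99.7, 103 and 88.7 CPM at T0, by 0.30 ± 0.06 (adjusted p = 0.000407). ETS1 was at 30.9, 30.6 and 30.6 CPM at T0 and fell by 0.30 ± 0.10 (adjusted p = 0.0305, edgeR). This ETS1 call was lost with no filter on low counts (adjusted p = 0.0638) and when any T0 library, PBS replicate 2 or PBS replicate 3 was left out (log2 -0.30 to -0.25, adjusted p up to 0.122). ETV4 (-0.63 ± 0.24, adjusted p = 0.0509, edgeR) missed the threshold and crossed it without T0 replicate 1 (-0.77, adjusted p = 0.0308) and without OSM replicate 2 or 3 or OSM+TGFB replicate 2 or 3 (adjusted p = 0.00931 to 0.0446). Those 4 libraries belong to neither group and enter through the shared estimate of the spread. ETS2 (173, 187 and 165 CPM at T0) and ERF did not pass the test, with 95% intervals of -0.33 to 0.02 and -0.12 to 0.14. Set directly against each other, EGF and OSM differed in 5 members (54.4% of all rows called), with ETV1, ETV4, ETV5 and ELK3 (0.18 ± 0.06, adjusted p = 0.0107, edgeR) higher with EGF and ETS2 lower. ERF did not differ by the test (-0.02, 95% interval -0.15 to 0.12).

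Adding TGFB lowered ETV1 and ETV4 whichever other ligand was present, while ETS1 and ELK3 rose. On EGF, TGFB changed 6 members (52.2% of all rows called). ETV1 fell by 1.44 (95% interval -1.85 to -1.03, adjusted p = 1.44e-06), ETV4 by 0.80 ± 0.20 (adjusted p = 0.00206) and ERF by 0.33 ± 0.06 (adjusted p = 0.000146, edgeR). ETS1 rose by 0.83 ± 0.10, ETS2 by 1.03 ± 0.09 and ELK3 by 0.48 ± 0.06. ETV5 differed by -0.01, with a 95% interval of -0.33 to 0.30. On EGF+OSM, TGFB changed 5 members (58.8% of all rows called), with ETV1 lower by 1.75 ± 0.20, ETV4 by 0.99 ± 0.21 and ERF by 0.28 ± 0.06, and ELK3 higher by 0.72 ± 0.06. ETS1 was called higher by 0.26 ± 0.10 (adjusted p = 0.0261, edgeR), a call that was lost in 12 of the 27 fits that left out 1 library (log2 0.18 to 0.24, adjusted p 0.072 to 0.183), namely each library of EGF+TGFB, OSM+TGFB and EGF+OSM+TGFB, EGF+OSM replicates 2 and 3 and OSM replicate 1. It was also lost with relative log expression scaling (0.23, adjusted p = 0.0505) and with no filter (0.26, adjusted p = 0.0614). On OSM, TGFB changed 4 members (48.8% of all rows called). ETV1 fell by 1.38 ± 0.23 and ETV4 by 0.70 ± 0.24, and ETS1 rose by 0.64 ± 0.10 and ELK3 by 0.65 ± 0.06. Without OSM replicate 3 the values were -1.12 ± 0.22 for ETV1 and 0.78 ± 0.09 for ETS1. The ETV4 call rested on OSM replicate 3 and OSM+TGFB replicate 2. Without the first it was -0.29 ± 0.20 (adjusted p = 0.274) and without the second -0.54 (adjusted p = 0.1, edgeR). ETV5, at 0.21 ± 0.17 with all libraries, was 0.53 ± 0.12 without OSM replicate 3 and then passed the test (adjusted p = 0.00122, edgeR).

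OSM added to EGF changed 2 members (33.0% of all rows called), ETS1 (higher by 0.92 ± 0.10) and ETS2 (higher by 1.65 ± 0.09). ETV1 and ETV5, which OSM raised on PBS, had differences of -0.002 (95% interval -0.39 to 0.39) and 0.06 (-0.26 to 0.37) on EGF. ETV4 differed by -0.50 ± 0.20 (adjusted p = 0.0603, edgeR) and crossed the threshold without OSM replicate 2 or 3 or OSM+TGFB replicate 2 or 3 (adjusted p = 0.0077 to 0.0407). On TGFB, OSM changed 6 members (54.2% of all rows called). ETS1 rose by 1.46 ± 0.10, ETS2 by 1.70 ± 0.09, ETV5 by 0.71 ± 0.17 and ELK3 by 0.36 ± 0.06, while ETV1 fell by 0.69 ± 0.23 (adjusted p = 0.0158). The ETV1 call was lost without TGFB replicate 1 (-0.52, adjusted p = 0.0959) and without OSM+TGFB replicate 2 (-0.56, adjusted p = 0.0793, edgeR). ERF was called higher by 0.17 ± 0.06 (adjusted p = 0.033, edgeR) but lost the call under upper-quartile scaling (0.11, adjusted p = 0.163) and in 12 of the 27 fits that left out 1 library. Those libraries were all 3 of EGF+TGFB and of EGF+OSM+TGFB, OSM replicates 2 and 3, TGFB replicates 2 and 3 and OSM+TGFB replicates 1 and 2 (adjusted p 0.0506 to 0.189). On plain library totals the ERF mean was lower with OSM+TGFB (44.3 CPM) than with TGFB (47.2 CPM). On EGF+TGFB, OSM changed 4 members (24.8% of all rows called). ETS2 rose by 0.61 ± 0.08, the 1 call kept with every library left out in turn. ETV4 fell by 0.69 ± 0.21 and ELK3 rose by 0.24 ± 0.06, and both calls were lost without EGF+TGFB replicate 3 or EGF+OSM+TGFB replicate 1 or 2 (adjusted p 0.0557 to 0.0935). ETS1 rose by 0.35 ± 0.10, a call lost without EGF+TGFB replicate 2 or 3 or EGF+OSM+TGFB replicate 1 or 3 (adjusted p 0.058 to 0.11, edgeR).

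EGF raised the PEA3 genes on every background and lowered ETS2 on every background. On OSM it changed 6 members (59.4% of all rows called), with ETV1 higher by 2.04 ± 0.20, ETV4 by 2.10 ± 0.22, ETV5 by 1.88 ± 0.16 and ETS1 by 0.92 ± 0.10, and ETS2 lower by 1.59 ± 0.09 (log2 -1.59). Without OSM replicate 3 the rises were 2.36 ± 0.21, 2.57 ± 0.20, 2.25 ± 0.13 and 1.11 ± 0.09 for ETV1, ETV4, ETV5 and ETS1. ELK3 was called higher by 0.19 ± 0.06 (adjusted p = 0.00905, edgeR), which became 0.14 (adjusted p = 0.0695) without EGF+OSM replicate 1. On TGFB, EGF changed 7 members (66.8% of all rows called). ETV1 rose by 1.29 ± 0.21, ETV4 by 2.69 ± 0.23, ETV5 by 2.32 ± 0.17, ETS1 by 1.65 ± 0.10 and ELK3 by 0.38 ± 0.06, while ETS2 fell by 0.66 ± 0.08 and ERF by 0.20 ± 0.06. On OSM+TGFB, EGF changed 7 members (50.1% of all rows called), with ETV1 higher by 1.67 ± 0.23, ETV4 by 1.81 ± 0.23, ETV5 by 1.56 ± 0.16, ETS1 by 0.54 ± 0.10 and ELK3 by 0.26 ± 0.06. There ETS2 fell by 1.75 ± 0.09 and ERF by 0.22 ± 0.06. ERF was higher with EGF on PBS and lower with EGF where TGFB was present.

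**Figure D3:**
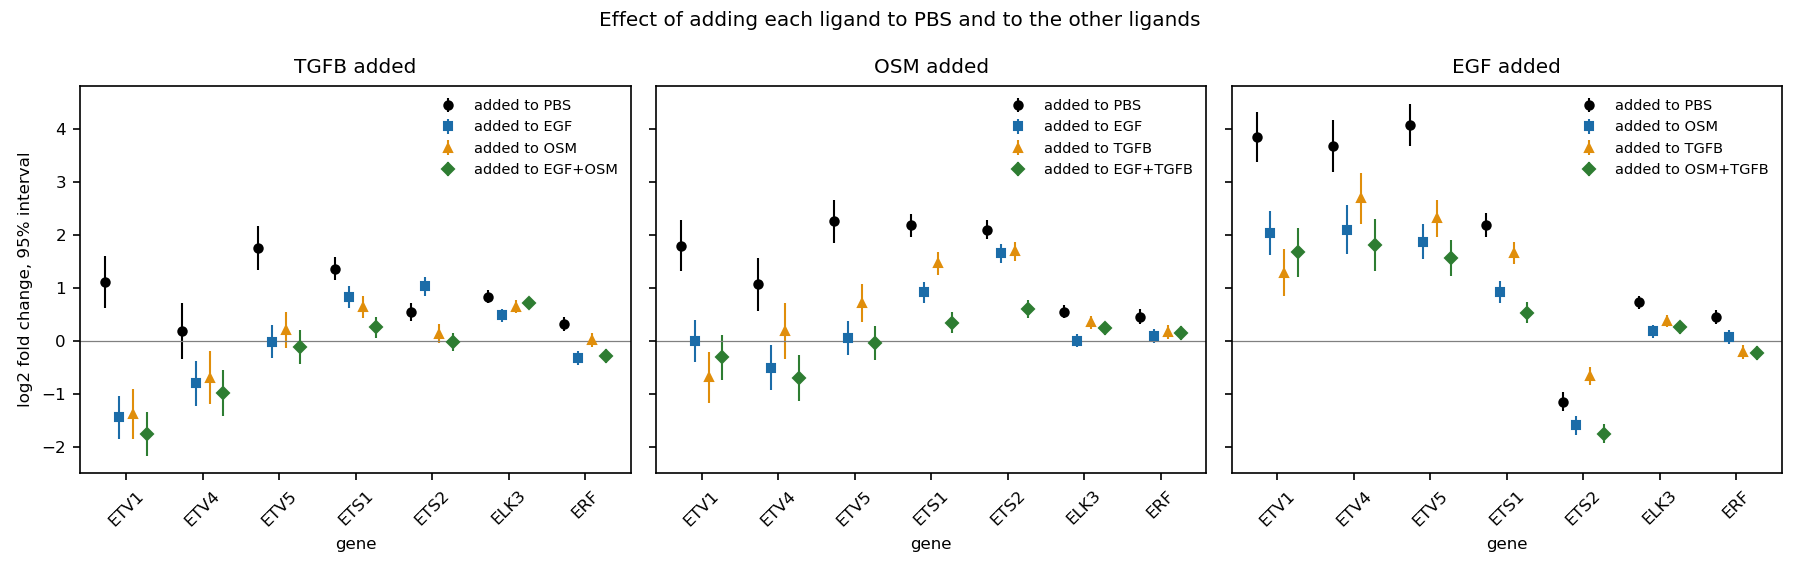
Log2 fold change (vertical axis, with 95% intervals) of each ETS factor when TGFB, OSM or EGF (3 panels) was added to PBS or to the other ligands (marker and colour). In the TGFB panel ETV1 is above 0 on PBS and below 0 on EGF, OSM and EGF+OSM, and in the EGF panel ETS2 is below 0 on all 4 backgrounds.

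The departure of a combination from additivity, its log2 fold change against PBS minus the sum of those of its single ligands, was negative for most members. A sum of log2 values stands for the product of the single folds, so a negative departure means less than that product. Whether a combination also fell below the sum of the changes in CPM was not tested. ETS1 had negative departures although each combination stood above its single ligands. For EGF+OSM it was called in all 7 members, all lower than the sum (36.5% of all rows called). The departure was -2.21 ± 0.25 for ETV5, -1.80 ± 0.30 for ETV1, -1.57 ± 0.31 for ETV4 and -1.27 ± 0.14 for ETS1, and between -0.55 and -0.36 for ELK3, ETS2 and ERF. Without OSM replicate 3 it was -1.89 ± 0.17 for ETV5, -1.55 ± 0.28 for ETV1 and -1.17 ± 0.25 for ETV4 (adjusted p = 0.000854, edgeR). For EGF+TGFB it was called in 7 members (27.7% of all rows called), 6 lower and ETS2 higher (0.49 ± 0.12, adjusted p = 0.00383). ETV1 had -2.55 ± 0.31, ETV5 -1.77 ± 0.25, ERF -0.65 ± 0.09, ETS1 -0.54 ± 0.14 and ELK3 -0.36 ± 0.08. ETV4 had -0.98 ± 0.33 (adjusted p = 0.0274, edgeR), a call lost with no filter (-0.94, adjusted p = 0.0706) and without PBS replicate 1, EGF replicate 3, TGFB replicate 2 or EGF+TGFB replicate 1 (-0.96 to -0.91, adjusted p 0.0527 to 0.066). For OSM+TGFB it was called in 5 members, all lower (21.5% of all rows called). ETV1 had -2.49 ± 0.33, ETV5 -1.55 ± 0.26, ETS1 -0.72 ± 0.14, ETS2 -0.40 ± 0.12 and ERF -0.30 ± 0.09, the last lost without PBS replicate 2 (-0.26, adjusted p = 0.066, edgeR). Without OSM replicate 3 ETV1 had -2.22 ± 0.31, ETV5 -1.22 ± 0.18 and ETS1 -0.58 ± 0.12. ELK3 had -0.19 ± 0.08 (adjusted p = 0.112). ETV4 had -0.88 ± 0.35 (adjusted p = 0.0794, edgeR) and passed the test without OSM replicate 2 (-1.18, adjusted p = 0.00755) or OSM+TGFB replicate 3 (-1.14, adjusted p = 0.0305), while it was -0.47 (adjusted p = 0.279) without OSM replicate 3.

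With all 3 ligands the departure from the sum of the single responses was negative in all 7 members (45.9% of all rows called). It was -4.66 ± 0.47 for ETV1, -4.07 ± 0.39 for ETV5, -2.74 ± 0.49 for ETV4, -2.38 ± 0.21 for ETS1, -1.01 ± 0.17 for ETS2, -0.97 ± 0.13 for ERF and -0.67 ± 0.12 for ELK3, and without OSM replicate 3 -4.46 for ETV1, -3.81 for ETV5, -2.40 for ETV4 and -1.17 for ETS2. For ETV5, whose sum of single responses was the largest, the measured response stayed at 4.03, near that of EGF alone at 4.08. The 3-way interaction, which sets the triple combination against what the singles and pairs give together, was called in 4 members (3.37% of all rows called), ETV1 (2.18 ± 0.43, adjusted p = 0.00437), ETV5 (1.45 ± 0.34, adjusted p = 0.0183), ETS2 (-0.64 ± 0.17, adjusted p = 0.0336) and ELK3 (0.43 ± 0.12, adjusted p = 0.0453, edgeR). Of these, ETV1 kept its call under every setting tried and ETV5 lost it with no filter on low counts (1.40, adjusted p = 0.0549). The ETS2 call was lost in 14 and the ELK3 call in 18 of the 27 fits that left out 1 library, so the count of called members there ran from 2 to 4. For ETS2 those libraries were PBS replicate 2, OSM replicates 1 and 3, EGF replicates 1 and 3, TGFB replicates 1 and 2, EGF+OSM replicates 2 and 3, EGF+TGFB replicates 1 and 2, OSM+TGFB replicates 1 and 2 and EGF+OSM+TGFB replicate 3 (log2 -0.65 to -0.55). For ELK3 they were all libraries but PBS replicate 1, T0 replicates 2 and 3, OSM replicate 2, EGF+OSM replicate 1, EGF+TGFB replicates 1 and 2, OSM+TGFB replicate 3 and EGF+OSM+TGFB replicate 3 (log2 0.39 to 0.45).

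**Figure D4:**
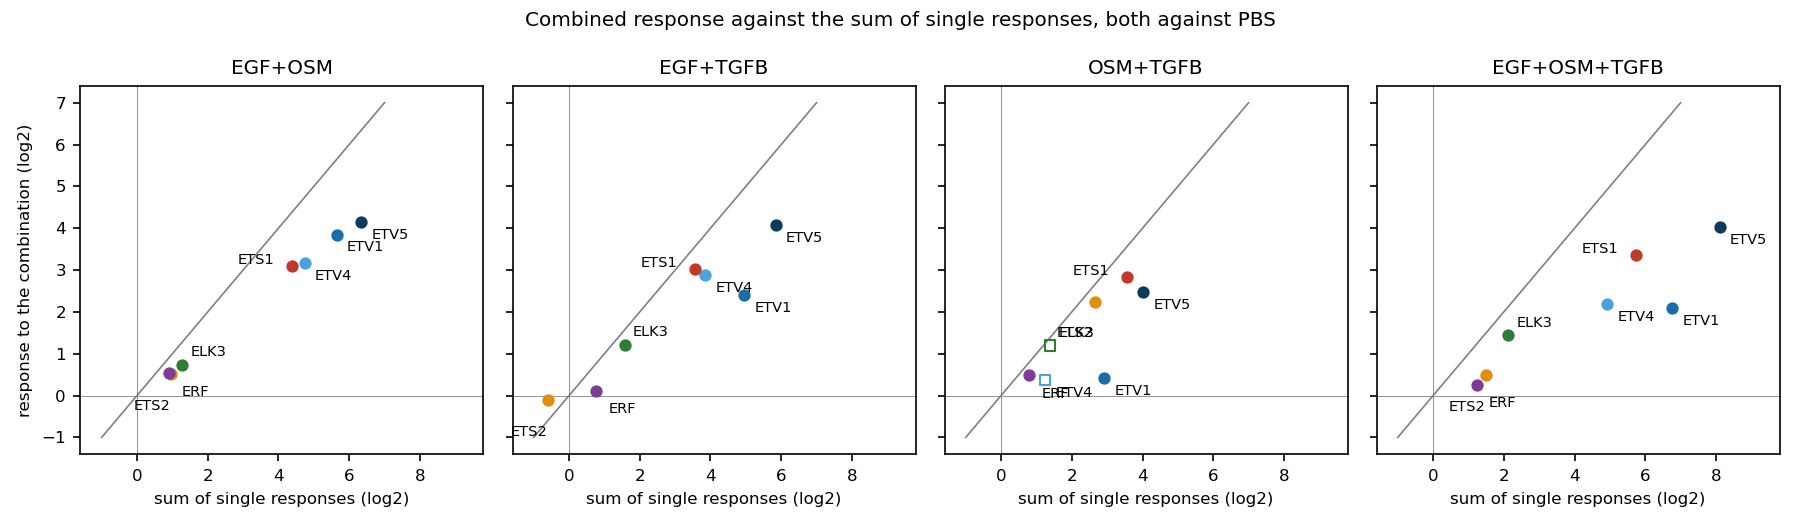
Response to each combination (vertical axis, log2 fold change against PBS) against the sum of the responses to its single ligands (horizontal axis, log2), 1 point per ETS factor, with the line of equality in grey. Filled circles mark called departures and open squares those not called (ETV4 and ELK3 with OSM+TGFB), and all points lie below the line except ETS2 with EGF+TGFB.

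The 9 group means of log2 CPM described how the members varied together. Each such correlation is over 9 points that share libraries and control groups, and is given as a description. ETV1 and ETV4 ran most alike (Pearson r = 0.94), followed by ETV4 with ETV5 and ETV5 with ETS1 (both 0.89), ETS1 with ELK3 (0.87) and ETV1 with ETV5 (0.82). ETS2 ran against ETV4 (r = -0.52). Among 13100 rows with a symbol and a mean of at least 1 CPM, the rows most like ETV1 were CHRNA5, a nicotinic receptor subunit (r = 0.989), MPP6, a membrane scaffold protein (0.982), and CENPX, a centromere protein (0.982). Those most like ETV4 were EIF2B2, a translation initiation factor subunit (0.990), MTFR1 (0.990) and TCHP (0.985). For ETV5 they were SF3B2, a splicing factor subunit (0.987), GPR89B (0.985), whose near-identical paralog can share its reads, and EIF5A2 (0.985). For ETS1 they were PTHLH, the parathyroid hormone-related hormone (0.994), the exchange factor ARHGEF10 (0.993) and CMTM6, which stabilizes PD-L1 at the membrane (0.992). PTHLH rose from 0.607 CPM in PBS to 38.2 CPM with EGF+OSM+TGFB. For ETS2 the likeness was weaker, with the carboxypeptidase CPD (0.966), ZMYM4 (0.966) and the poly(C)-binding protein PCBP3 (0.964), which ran from 0.621 CPM with EGF to 11.1 CPM with OSM. For ELK3 the rows were VOPP1 (0.987), TSPAN17 (0.986) and PRR5L (0.983), and for ERF the microtubule-severing subunit KATNA1 (0.972), HNRNPA0 (0.961) and SMARCC1, a chromatin remodelling subunit (0.946). Pearson r does not measure the size of a change, and not all of these rows ranged as widely as PTHLH and PCBP3. Between their lowest and highest group means, SF3B2 ran from 168 to 249 CPM and ZMYM4 from 78.5 to 98.8 CPM.

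The genes around the members in the pathway were counted from lists, beside which 70.8%, 61.0% and 33.5% of all rows were called in the EGF, OSM and TGFB comparisons with PBS. Of 8 transcripts widely used as readouts of ERK output, EGF raised 7 and lowered 1, OSM raised 5 and lowered 2, and TGFB raised 4 of 8. The median log2 fold change of the list was 2.27 with EGF, 0.60 with OSM and 0.52 with TGFB, beside the medians near 0 over all rows. DUSP6, the ERK phosphatase, was highest with EGF (log2 4.16 ± 0.20) and OSM (3.62 ± 0.20), followed by SPRY4 (3.90 ± 0.20 and 1.97 ± 0.20). EPHA4 went the other way, lower with EGF (-1.46 ± 0.14) and OSM (-1.14 ± 0.14) and higher with TGFB (1.17 ± 0.14). SPRY2 was higher with EGF (0.83 ± 0.10) and lower with OSM (-0.61 ± 0.10). Of 11 feedback inhibitors of the DUSP, SPRY and SPRED families, 4 of them also in the first list, EGF raised 10 and lowered SPRY3 (-1.02 ± 0.17), OSM raised 9 and lowered SPRY2, and TGFB raised 7 and lowered none, with medians of 1.66, 1.04 and 0.72. SPRED3 followed DUSP6 among those raised by OSM (2.55 ± 0.22), and SPRED2 among those raised by TGFB (0.81 ± 0.10).

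The cascade itself moved in both directions. Of 22 genes for its kinases, adaptors and the regulators of ETS factors, 10 rose and 10 fell with EGF, 8 rose and 7 fell with OSM, and 12 rose and 3 fell with TGFB, with medians of -0.04, 0.04 and 0.16. NRAS (0.78 ± 0.06) and SRF, the partner of ternary complex factors (0.62 ± 0.05), were highest with EGF, and MAPK3, which encodes ERK1 (-1.06 ± 0.09), and the scaffold KSR1 (-0.97 ± 0.17) were lowest. KSR1 was the gene of this list raised most by OSM (2.25 ± 0.16), as ATXN1, a partner of CIC, was by TGFB (0.80 ± 0.12). MAPK3 (-0.77 ± 0.09) and BRAF (-0.52 ± 0.07) were lowest with OSM, and MAP2K1 (-0.26 ± 0.06) with TGFB.

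Among the 21 other ETS family genes, 15 passed the filter. The 6 that did not, ETV3L, ELF5, SPDEF, FEV, SPI1 and SPIC, reached at most 7 counts in any library. EGF raised 2 of the 15 and lowered 9, OSM raised 7 and lowered 7, and TGFB raised 4 and lowered 2, with medians of -0.35, 0.14 and 0.01. FLI1, a close relative of ERG, rose with all 3 ligands (3.41 ± 0.11, 3.18 ± 0.11 and 1.88 ± 0.11), from 1.14 ± 0.0718 CPM (SD, n = 3) in PBS to 12.1 ± 0.944 CPM with EGF. ELK1 was the other gene raised by EGF (0.33 ± 0.06), and ETV6 was next after FLI1 with TGFB (0.30 ± 0.07). The epithelial factors ELF3 and EHF were lowest with EGF (-3.03 ± 0.36 and -2.77 ± 0.19) and with OSM (-1.72 ± 0.34 and -1.55 ± 0.18). EHF (-0.58 ± 0.18) and ETV3 (-0.22 ± 0.04) were the 2 that fell with TGFB. ERG was called higher with OSM, but its level was low. It held 1 count over the 3 PBS libraries and stood at 1.24 ± 0.107 CPM with OSM.

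**Figure D5:**
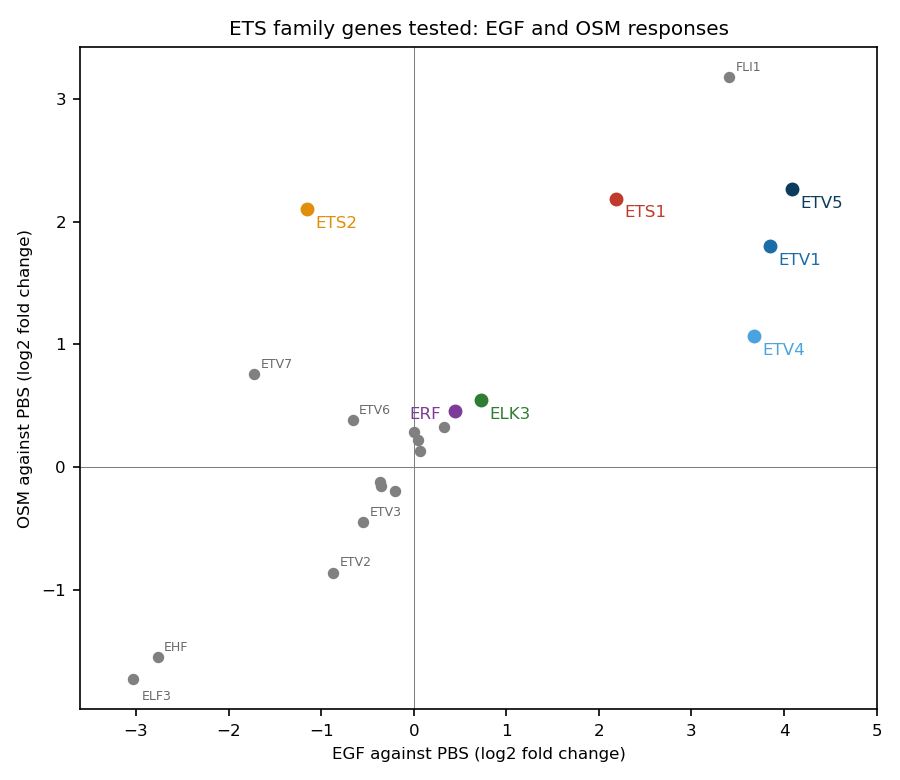
Log2 fold change with OSM (vertical axis) against that with EGF (horizontal axis), both against PBS, for the 7 members (coloured) and 14 of the 15 other ETS family genes tested (grey), ERG being left out because it held 1 count in PBS. ETV1, ETV4, ETV5 and ETS1 lie at the right with FLI1, ETS2 lies at upper left, and ELF3 and EHF at lower left.

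The last list held 8 genes, matrix metalloproteinases (MMP14 among them as a membrane-bound one), the protease urokinase (PLAU) and its receptor PLAUR. EGF raised 6 and lowered 2, OSM raised 5 and lowered 1, and TGFB raised 8, with medians of 1.72, 0.43 and 2.82 (1.70, 0.43 and 1.86 with genes near 0 in PBS set to a floor of 3 counts over the group). MMP10 rose from 0.0651 ± 0.0535 CPM in PBS to 9.05 ± 1.79 CPM with EGF, and MMP13 from 0.769 ± 0.169 to 14.6 ± 1.27 CPM with TGFB. MMP1 had no count in the PBS libraries and stood at 3.27 ± 0.592 CPM with EGF, 138-fold the floor. MMP3 held 1 count over the PBS libraries and stood at 9.28 ± 2.54 CPM with OSM. MMP13 (-1.35 ± 0.54) and MMP14 (-0.37 ± 0.08) were the 2 lowered by EGF, and MMP9 (-0.80 ± 0.28) the 1 lowered by OSM. PLAU (0.34 ± 0.13) was the smallest of the OSM rises, and PLAUR (1.20 ± 0.11) and MMP14 (0.57 ± 0.08) those of TGFB.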

How the data were processed

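RNA from MCF10A cells (TruSeq Stranded mRNA, per the labels' protocols) was sequenced in 27 libraries, in 9 groups of 3. The deposited table holds estimated counts per gene, which the authors made with kallisto 0.46.2 after Trim Galore 0.4.3, cutadapt 1.10 and FastQC 0.11.5, on GRCh38.p5 (hg38), per the submitters' processing notes. How transcript estimates were summed to genes and whether strand was used is not given in the sources used here.

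Estimated counts were rounded to whole numbers and fitted with edgeR 4.0.16 in R 4.3.3 (filterByExpr, TMM scaling, robust quasi-likelihood fit of 9 group means, 18 residual degrees of freedom). P-values were Benjamini-Hochberg adjusted over 16611 rows and a row was called at an adjusted p under 0.05. Fold changes carry a prior count of 0.125, SE was taken from the F statistic, and CPM used TMM-scaled library totals of 30.1 to 52.9 M counts before scaling. Alternatives were relative log expression and upper-quartile scaling, no filter, DESeq2 1.42.0, the replicate number as a block, and leaving out each of the 27 libraries. The script was tested on simulated data with 200 changed genes.

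The members and gene lists were chosen with earlier results of these data known. Named besides the 7 members are, for each member, the 3 rows with the highest correlation over group means (mean of at least 1 CPM), and, for each list and single ligand, the 2 highest and 2 lowest called genes, of which 1 is not reported here. Gene positions are from the GENCODE annotation (GRCh38), promoter sequences from RefSeq (GRCh38.p14). Columns without a sample numbered 0.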

Additional observations from a re-analysis of the deposited data

Results flagged for a closer look

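A ligand's effect on a member differed between backgrounds in 19 cases, each by the test of the difference itself, an interaction term in edgeR's quasi-likelihood fit with Benjamini-Hochberg adjustment. The value is the log2 fold change of the pair against PBS minus the sum of those of its 2 single ligands, and n is 3 libraries in each of the 4 groups it uses. For EGF with OSM it was -2.21 for ETV5, -1.80 for ETV1, -1.57 for ETV4, -1.27 for ETS1, -0.55 for ELK3, -0.45 for ETS2 and -0.36 for ERF. For EGF with TGFB it was -2.55 for ETV1, -1.77 for ETV5, -0.98 for ETV4, -0.65 for ERF, -0.54 for ETS1 and -0.36 for ELK3, and 0.49 for ETS2, the one value above 0. For OSM with TGFB it was -2.49 for ETV1, -1.55 for ETV5, -0.72 for ETS1, -0.40 for ETS2 and -0.30 for ERF. The 3 pairs share the PBS libraries and, in part, the single-ligand libraries. Over all rows tested, 36.5% were called for EGF with OSM, 27.7% for EGF with TGFB and 21.5% for OSM with TGFB. The calls of ETV4 for EGF with TGFB and of ERF for OSM with TGFB were lost under some alternatives, as given above.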

How the results depend on the processing

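Of 161 values (7 members in 23 comparisons), 130 were called, and 116 of these stayed called under all 32 alternatives, 117 with each library left out and 124 under the 5 other settings. No called value changed sign in these fits, which did not include plain library totals. The members called in the 3-way interaction numbered 2 with no filter and 2 to 4 with 1 library left out, against 4, and those called when OSM was added to EGF+TGFB numbered 1 to 4. Between the groups highest and lowest on TMM-scaled CPM, the ratio of means on plain library totals was 8.23 for ETS1, 8.50 for ETS2 and 2.18 for ELK3. With TMM scaling these ratios were 10.3, 10.5 and 2.73. On plain library totals the highest ETS2 mean was with OSM (660 CPM), ahead of OSM+TGFB (652 CPM). Values that changed sign in the fits were all uncalled. For EGF against OSM, ERF (-0.0164) became 0.020 with relative log expression scaling, 3.52e-05 with no filter and 0.0202 with DESeq2, and ETS1 became -0.0194 with upper-quartile scaling. For OSM added to EGF, ETV1 became 0.00716 with no filter and 0.00306 with the replicate block, and ELK3 became -0.00512 with relative log expression scaling, -0.0114 with upper-quartile scaling and -0.00517 with DESeq2. For TGFB added to EGF, ETV5 became 0.0159 with no filter. With 1 library left out, the ranges that crossed 0 were -0.0291 to 0.0842 (ERF) and -0.0618 to 0.225 (ETS1) for EGF against OSM, -0.120 to 0.117 (ETV1) and -0.0469 to 0.0410 (ELK3) for OSM added to EGF, -0.0951 to 0.0380 (ETV5) for TGFB added to EGF, -0.0298 to 0.0592 (ERF) for PBS against T0, -0.0661 to 0.354 (ETV4) for OSM added to TGFB, -0.0313 to 0.0502 (ERF) and -0.0214 to 0.531 (ETV5) for TGFB added to OSM, and -0.118 to 0.00493 (ETS2) for TGFB added to EGF+OSM. The cause was not tested. DESeq2 called 3 more values and lost none. Upper-quartile scaling moved all fold changes against PBS down by up to 0.10 (log2), and with it ETS2 was called lower with EGF+TGFB (-0.22, adjusted p = 0.0283). Same-numbered libraries of different groups correlated little in their deviations (mean r = 0.0311 over 108 pairs, -0.0439 to 0.115), although 26 of 27 libraries correlated best with their own number, a hint from the data and not from the design. With the replicate block no call was lost and 4 were gained, ETV4 in PBS against T0 (adjusted p = 0.0138), in OSM added to EGF (adjusted p = 0.0137) and in the OSM+TGFB departure (adjusted p = 0.0257), and ELK3 in that departure (adjusted p = 0.0353). Each member had 1 row, so the planned choice among several rows was not run. ETV1, at 21 to 421 counts per library, was the member most limited by depth.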
